A study of Mus musculus with 3 samples.

Results

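The 10 genes described here are secreted WNT ligands (*Wnt4*, *Wnt5a*, *Wnt5b*), R-spondins (*Rspo1*, *Rspo3*), secreted inhibitors of WNT signaling (*Dkk2*, *Dkk3*, *Sfrp1*, *Sfrp2*) and the Dickkopf receptor *Kremen1*. They were chosen by symbol and make up 10 of the 32293 features counted in 3 single-cell RNA-seq libraries of thymic stroma depleted of CD45+ cells. All mice were C57BL/6, 20 months old and untreated. One library came from females with a *Foxn1* lineage trace (Foxn1Lin female), one from males with the same trace (Foxn1Lin male) and one from wild type males. In the lineage trace, Cre under *Foxn1* switches a reporter in cells that have activated this transcription factor of thymic epithelium. Each library was the sole library of its group and was made from pooled thymi, so that genotype, sex and library cannot be told apart, and a difference between libraries has no replicate check. The protocol text names female mice for all 3 libraries, and the cell type label of the wild type library names PECAM1+ cells although its title does not.

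WNT proteins are secreted glycoproteins that bind Frizzled receptors, together with LRP5 or LRP6 in the branch that stabilizes β-catenin. R-spondins act through LGR receptors and the ubiquitin ligases ZNRF3 and RNF43 to keep Frizzled receptors on the cell surface, and so amplify WNT signals. Secreted Frizzled-related proteins bind WNT ligands directly, whereas DKK2 binds LRP5 and LRP6 and, with KREMEN1, can remove them from the surface. In the thymus, WNT signaling is known for its role in the development and upkeep of thymic epithelial cells (TECs).

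Each barcode was assigned to a class by its counts of unique molecular identifiers (UMIs), with at least 2 for *Epcam* (TECs), *Pecam1* (endothelial cells, ECs), *Pdgfra* (fibroblasts, FBs) or *Upk3b* (mesothelial cells), or at least 5 for *Rgs5* and *Acta2* together (mural cells). The libraries held 8616, 3583 and 5478 called barcodes and 53366016, 33386621 and 61258534 UMIs, given as everywhere below in the order of female lineage-traced, male lineage-traced and wild type mice. The 5 classes took 4959, 2557 and 3819 barcodes, and 594, 174 and 445 barcodes that met 2 definitions were dropped. TECs numbered 464, 426 and 867 barcodes, ECs 1879, 818 and 857, FBs 1852, 864 and 1707, and mural cells 426, 449 and 352. Mesothelial barcodes numbered 338 in Foxn1Lin female, 36 in wild type male and 0 in Foxn1Lin male. The summed markers of each class were highest in that class, and ECs were a minority of the wild type library. Single markers could differ, such as *Krt19* of the TEC list, which stood at 32.7 to 68.1 UMIs per 1000000 UMIs (CPM) in TECs and at 907 and 539 CPM in mesothelial cells. The mesothelial barcodes also carried FB markers, with 9471 and 10290 CPM against 13900 to 16870 CPM in FBs. They carried TEC markers as well, with 2156 and 1083 CPM against 6292 to 7812 CPM in TECs. The TEC markers of mesothelial cells were mostly the keratins *Krt19*, *Krt18* and *Krt8*, whereas *Krt5* stood at 9.7 CPM and *Cldn7* at 3.9 CPM in Foxn1Lin female. Parathyroid markers reached 2752 to 5179 CPM in TECs, of which *Pth* was the most abundant, and their part in the TEC values below was not tested. Intervals are exact 95% Poisson intervals for UMI counts and cover counting error only. Levels are in CPM, and a log2 difference is that of 1 class from the mean of the other 4, from edgeR's quasi-likelihood fit to UMI sums with the library as a block. A gene passed the test where the adjusted p was under 0.05. Genes were compared between classes and not with each other.

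Across the 5 classes, 7 of the 10 genes were higher and 1 was lower in FBs, 5 were higher and 1 was lower in mesothelial cells, and 7 were lower and 0 higher in ECs. In TECs 2 were higher and 3 lower, and in mural cells 1 was higher and 5 lower. The share of all 17595 genes tested that passed in either direction was 32.1% for FBs, 24.5% for mesothelial cells, 43.4% for ECs, 55.3% for TECs and 29.1% for mural cells. The median log2 difference of the 10 genes was 1.57 in FBs, 1.44 in mesothelial cells, -0.82 in TECs, -1.02 in mural cells and -2.20 in ECs, and that of all genes was between -0.17 and 0.12.

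**Figure D1:**
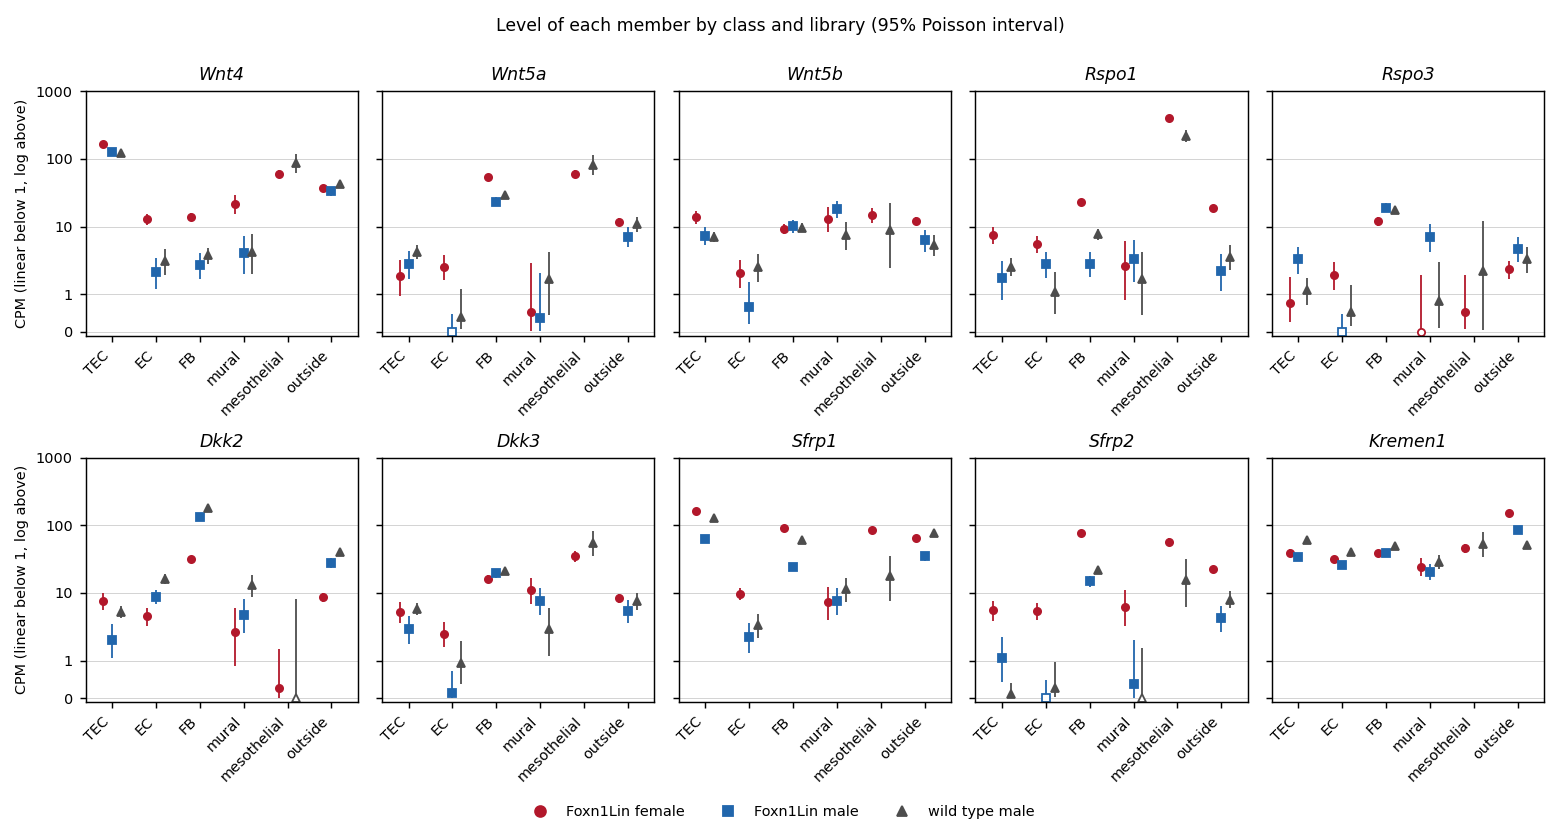
Level of each of the 10 genes by class and library, in CPM on an axis that is linear below 1 and logarithmic above, with 1 panel per gene. Points are libraries, open points mark 0 UMIs, bars are exact 95% Poisson intervals, and the last position shows barcodes outside the called ones. *Rspo1* stood at 395 and 218 CPM in mesothelial cells and at 23.1 CPM or below in every other class, and *Dkk2* was highest in FBs in all 3 libraries.

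Among the ligands, *Wnt4* (chr4:137277489-137299726, plus strand, GRCm38) was an epithelial transcript. WNT4 is a ligand of TECs that is known to promote *Foxn1* expression. Its level in TECs was 164 CPM (interval 154 to 174), 128 CPM (120 to 137) and 121 CPM (116 to 126), against 2.10 to 21.3 CPM in ECs, FBs and mural cells. Mesothelial cells lay between, at 59.5 and 85.8 CPM. The TEC values of all 3 libraries were above those of every other class. *Wnt4* was higher in TECs by 3.48 ± 0.32 (SE) on the log2 scale (edgeR adjusted p = 6.1e-06, 3 of 3 libraries), and higher in mesothelial cells by 2.02 ± 0.46 (adjusted p = 0.0079, 2 of 2 libraries). The difference between TECs and mesothelial cells, 1.17 ± 0.55, did not pass (adjusted p = 0.12). *Wnt4* differed by -2.16 ± 0.43 in ECs (adjusted p = 0.0017), by -1.97 ± 0.41 in FBs (adjusted p = 0.0035) and by -1.37 ± 0.46 in mural cells (adjusted p = 0.044). Without wild type male, the differences were -1.68 in FBs (adjusted p = 0.057), -1.07 in mural cells (adjusted p = 0.23) and 1.23 in mesothelial cells (adjusted p = 0.21), and without Foxn1Lin male the mural one was -1.28 (adjusted p = 0.14). Barcodes outside the called ones held 37.5, 33.2 and 41.9 CPM of *Wnt4*.

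*Wnt5a* (chr14:28504750-28527448, plus strand), a ligand known mostly for signals that do not use β-catenin, was a gene of FBs and mesothelial cells. In FBs it reached 54.3 CPM (50.5 to 58.2), 23.4 CPM (20.3 to 26.9) and 29.2 CPM (26.5 to 32.0), and in mesothelial cells 59.3 and 81.4 CPM. TECs, ECs and mural cells had between 0 and 4.23 CPM, so that the FB and mesothelial values did not overlap with those of the other classes. The log2 difference was 3.41 ± 0.40 for FBs (edgeR adjusted p = 8.2e-05, 3 of 3 libraries) and 4.14 ± 0.50 for mesothelial cells (adjusted p = 0.00016, 2 of 2 libraries). Between these 2 classes the log2 difference was 0.58 ± 0.57 in favor of mesothelial cells (adjusted p = 0.54).

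*Wnt5b* (chr6:119432531-119544347, minus strand), a close relative of *Wnt5a*, was spread over 4 of the 5 classes. It stood at 13.0, 17.9 and 7.48 CPM in mural cells, 9.30, 10.1 and 9.66 CPM in FBs, 13.7, 7.30 and 7.09 CPM in TECs and 14.7 and 8.80 CPM in mesothelial cells. ECs held 2.03, 0.657 and 2.54 CPM, below all other classes. The EC difference was -2.48 ± 0.40 on the log2 scale (edgeR adjusted p = 0.0005, 3 of 3 libraries). The mural difference, 1.04 with adjusted p = 0.045, did not pass once any 1 of the 3 libraries was left out (0.52 to 1.33, adjusted p 0.074 to 0.33). In TECs of Foxn1Lin female, 47 of 89 *Wnt5b* UMIs came from 1 barcode.

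Of the R-spondins, *Rspo1* (chr4:124986430-125009099, plus strand), a potentiator of WNT signaling, was concentrated in mesothelial cells. Its level there was 395 CPM (375 to 416) in Foxn1Lin female and 218 CPM (177 to 265) in wild type male. At least 1 UMI was found in 84.3% and 83.3% of mesothelial barcodes, and in 47.1% and 30.6% after each barcode was thinned to 2000 UMIs. FBs held 23.1, 2.78 and 7.63 CPM, and TECs, ECs and mural cells 1.07 to 7.38 CPM. In TECs the thinned share was between 0% and 0.665%. Mesothelial cells exceeded all other classes by 5.91 ± 0.33 on the log2 scale (edgeR adjusted p = 9.6e-07, 2 of 2 libraries). They exceeded FBs, the next class, by 4.59 ± 0.43 (adjusted p = 4.9e-05). Foxn1Lin male had no mesothelial barcode, so this class rests on 2 libraries and on 36 barcodes in wild type male.

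*Rspo3* (chr10:29452416-29535867, minus strand), the other R-spondin, was an FB transcript. FBs held 11.9 CPM (10.2 to 13.8), 19.0 CPM (16.2 to 22.2) and 17.4 CPM (15.4 to 19.7). The other classes held 0 to 3.26 CPM, apart from mural cells of Foxn1Lin male at 6.93 CPM. The FB difference was 3.66 ± 0.62 on the log2 scale (edgeR adjusted p = 0.00096, 3 of 3 libraries). Against mural cells, the next class, it was 2.72 ± 0.90 (adjusted p = 0.043). In mesothelial cells, where *Rspo1* was high, *Rspo3* had 2 UMIs and 1 UMI.

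Among the inhibitors, *Dkk2* (chr3:132085292-132180304, plus strand) was highest in FBs among the classes, although a small subset of ECs, described below, stood higher. DKK2 is a Dickkopf protein that acts on LRP5 and LRP6. FBs held 31.4 CPM (28.6 to 34.4), 134 CPM (126 to 142) and 179 CPM (172 to 186). ECs held 4.49, 8.81 and 16.1 CPM, and mesothelial cells had 1 UMI in Foxn1Lin female and 0 UMIs in wild type male. In every library the FB value was above that of each other class. *Dkk2* was higher in FBs by 5.08 ± 0.46 on the log2 scale (edgeR adjusted p = 1.5e-05, 3 of 3 libraries), and higher than in ECs, the next class, by 3.45 ± 0.54 (adjusted p = 0.00043).

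*Dkk3* (chr7:112116017-112159057, minus strand), a divergent Dickkopf relative, was found in mesothelial cells at 34.6 and 55.0 CPM and in FBs at 16.1, 19.5 and 20.8 CPM. Mural cells held 10.9, 7.65 and 2.91 CPM and TECs 5.22, 2.95 and 5.82 CPM. ECs held the least, with 2.46, 0.131 and 0.937 CPM. The log2 difference was 2.84 ± 0.46 in mesothelial cells (edgeR adjusted p = 0.0012, 2 of 2 libraries) and 1.72 ± 0.35 in FBs (adjusted p = 0.0034, 3 of 3 libraries). These 2 classes differed by 0.89 ± 0.55, which did not pass (adjusted p = 0.3). Without wild type male the mesothelial difference was 2.52 (adjusted p = 0.05).

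*Sfrp1* (chr8:23411502-23449632, plus strand), a secreted Frizzled-related protein, was shared by TECs and FBs. TECs held 164 CPM (154 to 174), 62.2 CPM (56.2 to 68.6) and 127 CPM (122 to 133), and FBs 90.7, 23.9 and 59.8 CPM. ECs and mural cells held 2.23 to 11.2 CPM. Mesothelial cells held 84.7 CPM in Foxn1Lin female and 17.6 CPM, from 8 UMIs, in wild type male. TECs were above FBs in each library, and both were above ECs and mural cells. The log2 difference was 2.39 ± 0.27 in TECs (edgeR adjusted p = 2.8e-05, 3 of 3 libraries) and 1.43 ± 0.28 in FBs (adjusted p = 0.0025, 3 of 3 libraries). TECs exceeded FBs by 0.77 ± 0.35, which did not pass (adjusted p = 0.086).

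*Sfrp2* (chr3:83766321-83774316, plus strand), a relative of *Sfrp1*, was found in FBs and mesothelial cells and hardly in TECs. FBs held 76.6 CPM (72.1 to 81.2), 14.7 CPM (12.3 to 17.5) and 22.0 CPM (19.7 to 24.4), and mesothelial cells 56.7 and 15.4 CPM. TECs, ECs and mural cells held 0 to 6.23 CPM, with the highest value in Foxn1Lin female in each class. In FBs *Sfrp2* was higher by 3.88 ± 0.43 on the log2 scale (edgeR adjusted p = 5.5e-05, 3 of 3 libraries). FBs and mesothelial cells differed by 0.90 ± 0.69 (adjusted p = 0.42).

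*Kremen1* (chr11:5191552-5261558, minus strand), the receptor that takes part in Dickkopf action, was the most even of the 10 genes. TECs held 38.7, 34.0 and 59.8 CPM, FBs 39.1, 38.9 and 48.8 CPM, ECs 31.3, 26.2 and 40.3 CPM, mural cells 24.4, 20.4 and 28.7 CPM and mesothelial cells 45.9 and 52.8 CPM. Ranges overlapped between most classes, and mural cells were the lowest in each library. The mural difference was -0.66 ± 0.13 on the log2 scale (edgeR adjusted p = 0.0029, 3 of 3 libraries). The FB difference of 0.35 ± 0.11 passed (adjusted p = 0.036) but was lost without any 1 library (0.29 to 0.44, adjusted p 0.063 to 0.23). Barcodes outside the called ones held 150, 86.0 and 51.4 CPM of *Kremen1*, above every class in 2 of the 3 libraries.

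The 6 pairs of classes used for the order above each had their own share of all genes that passed, 55% for TECs against FBs, 37.8% for TECs against mesothelial cells, 39.6% for ECs against FBs, 28.4% for FBs against mural cells, 21.5% for FBs against mesothelial cells and 26.8% for mural against mesothelial cells. The highest class stood above the next one for *Rspo1*, *Rspo3* and *Dkk2*. For the other 7 genes the difference between the highest class and the next did not pass. The values of *Wnt4*, *Wnt5a* and *Dkk3* did not overlap between those classes. However, mesothelial cells gave only 2 values for each, and the share of all genes without overlap was not counted.

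**Figure D2:**
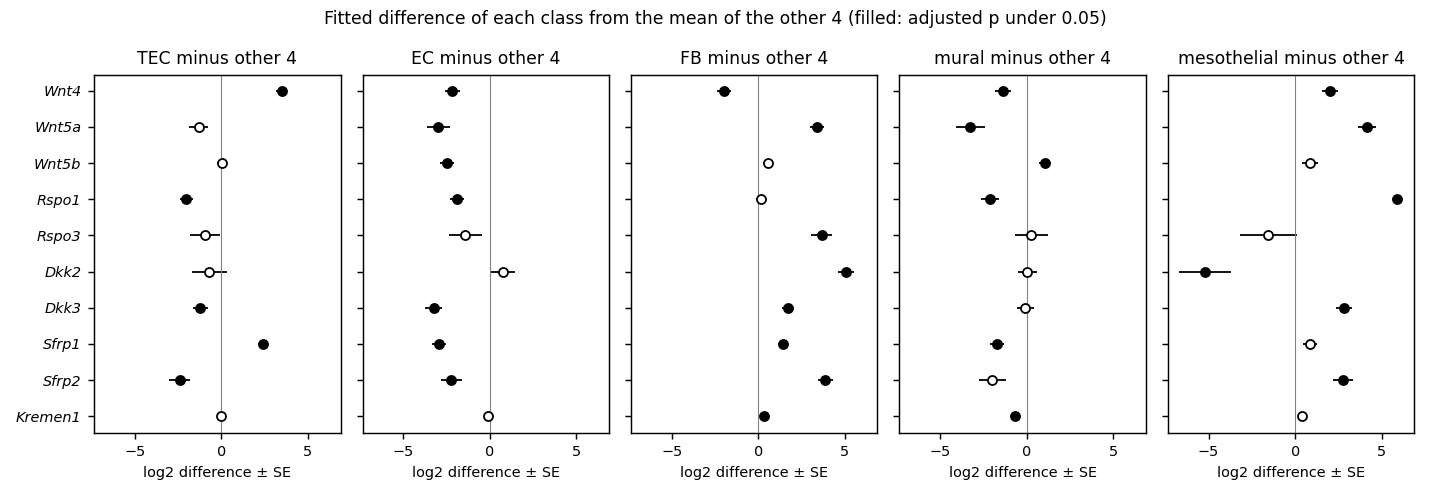
Log2 difference of each of the 10 genes in 1 class from the mean of the other 4, as fitted by edgeR, with bars of 1 SE and filled points where the adjusted p was under 0.05. The largest positive differences were 5.91 for *Rspo1* in mesothelial cells and 5.08 for *Dkk2* in FBs, and 7 genes were lower in ECs.

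FBs were divided by *Pi16* (at least 2 UMIs, a marker of capsular FBs), *Smoc2* and *Dpep1* (at least 3 together) and *Ptn* (at least 3, a marker of medullary FBs), with barcodes in 2 subsets left out. The *Smoc2*/*Dpep1* subset held 575, 100 and 212 barcodes and the *Ptn* subset 242, 407 and 681. The *Pi16* subset reached 20 barcodes in Foxn1Lin female alone, with 48. *Pi16*-positive FBs numbered 717, 81 and 171 in all. Of these, 638, 62 and 133 barcodes also met the *Smoc2*/*Dpep1* definition but not that of *Ptn*, and 23, 6 and 16 met all 3 definitions. The *Ptn* share of FBs thus differed between the libraries, and *Smoc2*/*Dpep1* FBs were the larger subset in Foxn1Lin female alone.

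Between *Smoc2*/*Dpep1* and *Ptn* FBs, 4 of the 10 genes were higher in the former and 1 in the latter, against 13.1% of all 12113 genes tested that passed in either direction. *Sfrp2* stood at 49.7, 25.8 and 53.0 CPM in *Smoc2*/*Dpep1* FBs and at 1.36, 1.26 and 0.803 CPM in *Ptn* FBs (log2 difference 5.29 ± 0.31, edgeR adjusted p = 2.1e-05). *Rspo1* stood at 22.9, 5.61 and 18.9 CPM against 1.36, 0.502 and 0.482 CPM (4.47 ± 0.43, adjusted p = 0.00027). The 2 subsets did not overlap for either gene, and *Ptn* FBs had at most 5 UMIs of each in any library. *Sfrp1* stood at 139, 77.5 and 169 CPM against 33.4, 14.3 and 21.2 CPM (2.54 ± 0.20, adjusted p = 8.1e-05). *Wnt5a* stood at 59.1, 48.3 and 60.3 CPM against 12.3, 13.6 and 15.4 CPM (2.00 ± 0.17, adjusted p = 0.00012). These values did not overlap between the subsets either, so that both Frizzled-related inhibitors, a ligand and an R-spondin shared the direction. *Dkk2* went the other way, with 8.70, 35.9 and 60.9 CPM in *Smoc2*/*Dpep1* FBs and 147, 134 and 197 CPM in *Ptn* FBs (-2.49 ± 0.38, adjusted p = 0.003). Each of the 5 differences had the same direction in 3 of 3 libraries, and that of *Dkk2* was -2.71 without Foxn1Lin male (adjusted p = 0.051). *Rspo3* did not pass, at 9.16, 25.8 and 30.4 CPM against 10.9, 10.3 and 13.6 CPM (adjusted p = 0.1), although without Foxn1Lin female it did (1.23, adjusted p = 0.01).

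Against both other subsets together, 3 genes passed in *Pi16* FBs (5.86% of all genes), 4 in *Smoc2*/*Dpep1* FBs (2.95%) and 4 in *Ptn* FBs (11.7%). In *Pi16* FBs *Sfrp2* and *Rspo1* were higher by 3.73 ± 0.41 (edgeR adjusted p = 0.0014) and 3.23 ± 0.56 (adjusted p = 0.013). These rest on 1 sum of 48 barcodes, so that the errors and p-values of the *Pi16* subset assume that it varies like the other subsets. *Sfrp1* differed there by -3.36 ± 0.73 (adjusted p = 0.031, and 0.11 without Foxn1Lin male), but when all *Pi16*-positive FBs were put in that subset first, whatever their other markers, the difference turned to 0.57 (adjusted p = 0.062), and the *Sfrp1* level in that subset became 77.0, 35.8 and 129 CPM. In *Ptn* FBs *Dkk2* was higher by 2.61 ± 0.55 (adjusted p = 0.016), and *Sfrp2*, *Rspo1* and *Wnt5a* were lower. Without Foxn1Lin male the *Dkk2* difference was 2.76 (adjusted p = 0.083). The *Rspo1* and *Wnt5a* differences in *Smoc2*/*Dpep1* FBs, 1.73 ± 0.34 and 0.97 ± 0.18, did not pass without Foxn1Lin male (1.90 and 1.03) or without wild type male (1.34 and 0.98).

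**Figure D3:**
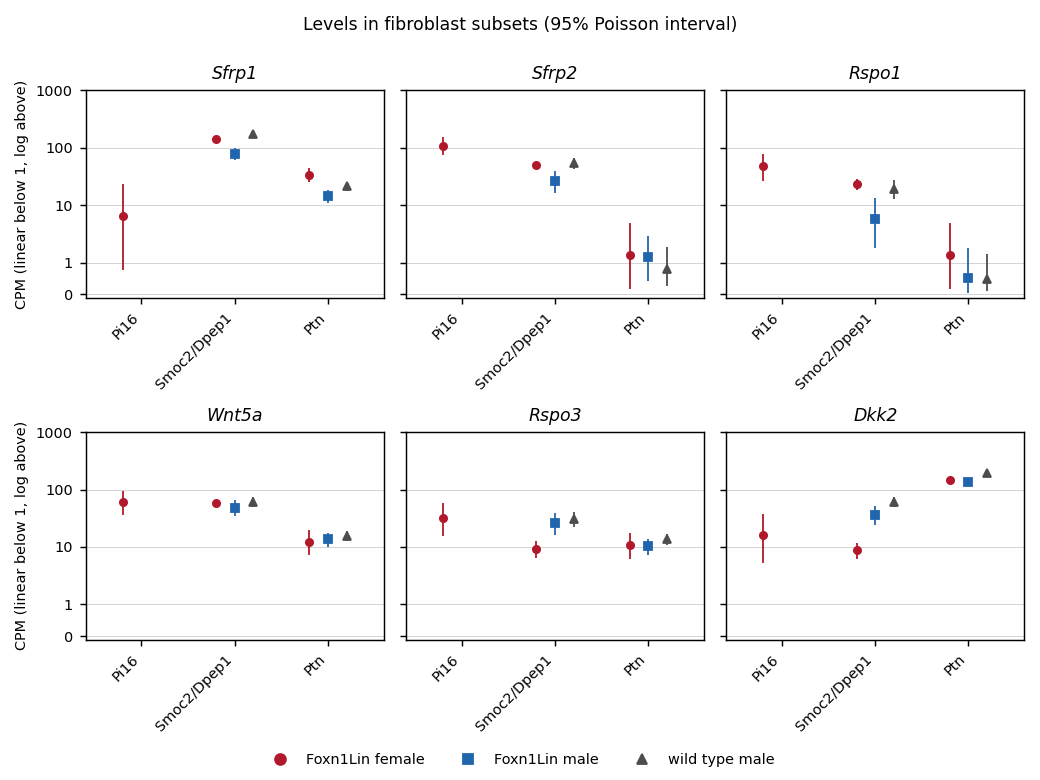
Levels of 6 genes in the 3 FB subsets by library, in CPM on an axis linear below 1 and logarithmic above, with exact 95% Poisson intervals. *Dkk2* was highest in the *Ptn* subset, whereas *Sfrp1*, *Sfrp2*, *Rspo1* and *Wnt5a* were higher in *Smoc2*/*Dpep1* FBs than in *Ptn* FBs. The *Pi16* subset is shown for Foxn1Lin female alone.

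The 300 bases around the starts of *Dkk2* and *Sfrp2*, the inhibitors that separated these FB subsets in opposite directions, are shown to set their base composition side by side (RefSeq, GRCm38.p6, 250 bases before to 50 bases after the start). Windows were found for 5 of the 10 genes. Capitals mark exact matches on either strand to CTTTGA or CTTTGT, the core letters bound by TCF/LEF factors of the WNT pathway, or to TATAAA. No measurement of factor binding was made.
Dkk2: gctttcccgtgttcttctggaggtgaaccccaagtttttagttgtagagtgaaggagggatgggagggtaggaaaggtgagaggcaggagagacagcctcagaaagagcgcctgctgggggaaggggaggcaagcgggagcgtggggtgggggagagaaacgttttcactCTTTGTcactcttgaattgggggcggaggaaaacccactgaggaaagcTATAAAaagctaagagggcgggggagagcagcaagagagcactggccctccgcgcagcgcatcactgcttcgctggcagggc
Sfrp2: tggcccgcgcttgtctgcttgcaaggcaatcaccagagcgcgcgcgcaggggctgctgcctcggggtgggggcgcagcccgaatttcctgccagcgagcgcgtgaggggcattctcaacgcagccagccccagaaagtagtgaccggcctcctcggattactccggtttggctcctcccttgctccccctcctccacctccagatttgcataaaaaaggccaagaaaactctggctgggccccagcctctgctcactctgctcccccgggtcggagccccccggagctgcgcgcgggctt
The *Dkk2* window (chr3:132085042-132085341, plus strand) was 57.7% G and C and held CTTTGT starting 80 bases and TATAAA starting 32 bases before the start, both on the plus strand. The *Sfrp2* window (chr3:83766071-83766370, plus strand) was 66% G and C and held 0 matches. Of all 32851 windows, 31.2% held CTTTGA or CTTTGT and 13.6% held TATAAA.

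*Dkk2* counts in FBs were concentrated in few barcodes. At least 1 UMI was found in 6.91%, 19.9% and 23.0% of FBs. FBs with 3 or more *Dkk2* UMIs numbered 58, 107 and 248, or 3.13%, 12.4% and 14.5% of all FBs, and held 78.8%, 92.0% and 92.9% of the *Dkk2* UMIs. A small share of FBs thus carried most of this inhibitor in each library, although these FBs were chosen by their *Dkk2* UMIs. Their median UMI totals were also higher, at 8311, 11510 and 10530 against 7356, 9070 and 7772 in FBs with 0. These FBs held *Ptn* at 2037, 3738 and 3130 CPM, against 458, 2339 and 1840 CPM in FBs with 0 *Dkk2* UMIs. *Rspo1* stood at 6.00, 0 and 2.08 CPM in them against 24.6, 3.32 and 9.15 CPM, and *Sfrp1* at 26.0, 16.0 and 46.5 CPM against 92.5, 27.1 and 60.5 CPM. Both were lower in FBs with 3 or more *Dkk2* UMIs in each library, but in FBs with 1 or 2 *Sfrp1* stood at 105, 7.39 and 84.0 CPM, above FBs with 0 in Foxn1Lin female and wild type male. *Rspo3* took no common direction, with 50.0, 10.7 and 13.5 CPM against 10.4, 20.5 and 19.0 CPM.

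**Figure D4:**
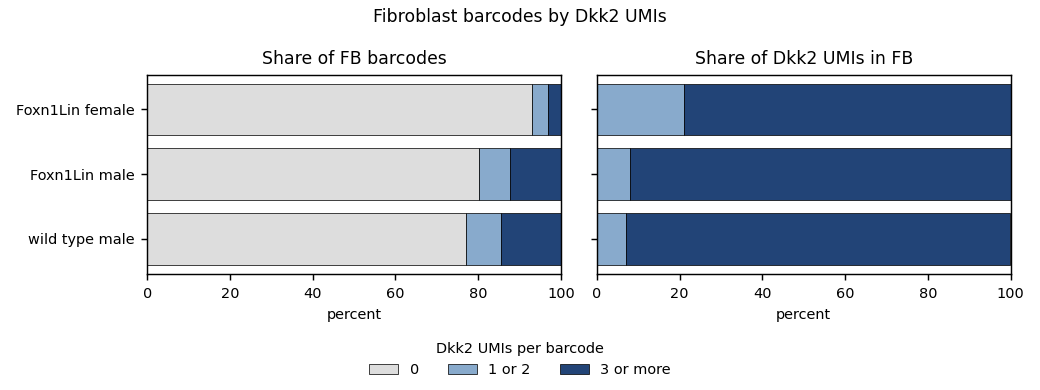
Fibroblasts grouped by their *Dkk2* UMIs (0, 1 or 2, 3 or more) in each library. FBs with 3 or more UMIs were 3.13%, 12.4% and 14.5% of FBs and held 78.8%, 92.0% and 92.9% of all *Dkk2* UMIs of the class.

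TECs were divided by *Prss16* and *Psmb11* (cortical markers), *Ccl21a*, *Aire* and *Fezf2* (medullary markers), and *Cldn3* and *Plet1*. The filter on low counts left 6 of the 10 genes to test, and *Rspo1*, *Rspo3*, *Sfrp2* and *Wnt5a* were not among them. In each of the 4 subsets 2 of the 6 passed, against 18% of all 12833 genes in *Prss16*/*Psmb11* TECs, 14.6% in *Ccl21a* TECs, 43.9% in *Aire*/*Fezf2* TECs and 18.2% in *Cldn3*/*Plet1* TECs.

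*Wnt4* passed in all 4 TEC subsets. It stood at 349 and 308 CPM in *Prss16*/*Psmb11* TECs of Foxn1Lin female and wild type male, the libraries with at least 20 such barcodes, and at 186, 201 and 167 CPM in *Ccl21a* TECs. *Aire*/*Fezf2* TECs held 46.9, 50.5 and 44.3 CPM and *Cldn3*/*Plet1* TECs 45.6, 63.2 and 58.1 CPM. The cortical subset was highest in both of its libraries, *Ccl21a* TECs came next, and the last 2 subsets overlapped. The log2 difference from the other subsets was 2.12 ± 0.16 for *Prss16*/*Psmb11* (edgeR adjusted p = 5.5e-05), 0.87 ± 0.15 for *Ccl21a* (adjusted p = 0.0045), -1.65 ± 0.16 for *Aire*/*Fezf2* (adjusted p = 3.5e-05) and -1.35 ± 0.16 for *Cldn3*/*Plet1* (adjusted p = 0.00043). *Sfrp1*, the other gene that was high in TECs as a class, passed in none of the 4 subsets, although without the top barcode of each sum it passed in *Prss16*/*Psmb11* TECs (1.01, adjusted p = 0.045). Without wild type male the *Wnt4* difference in *Ccl21a* TECs was 0.84 (adjusted p = 0.13).

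*Wnt5b* stood at 65.7, 20.1 and 18.3 CPM in *Cldn3*/*Plet1* TECs, a log2 difference of 3.18 ± 0.34 (edgeR adjusted p = 0.00024). In Foxn1Lin female 47 of the 49 UMIs came from 1 barcode. Without the top barcode of each sum the difference was 2.71 (adjusted p = 0.027). With the barcodes of the highest UMI totals removed it was 2.10 (adjusted p = 0.056). In *Prss16*/*Psmb11* TECs it was lower, with a difference of -3.02 ± 0.56 (adjusted p = 0.0058), which did not pass without Foxn1Lin female (-2.57), without wild type male (-3.51) or without the top barcode of each sum (-2.29, adjusted p = 0.2). *Dkk3* was higher in *Ccl21a* TECs, with 55.0, 11.5 and 19.9 CPM (3.40 ± 0.56, adjusted p = 0.0039). *Kremen1* was lower in *Aire*/*Fezf2* TECs, with 20.7, 4.49 and 26.1 CPM (-1.62 ± 0.33, adjusted p = 0.0029). Without wild type male these 2 differences were 3.93 (adjusted p = 0.097) and -1.68 (adjusted p = 0.065). Subsets of as few as 24 barcodes stand behind these values.

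**Figure D5:**
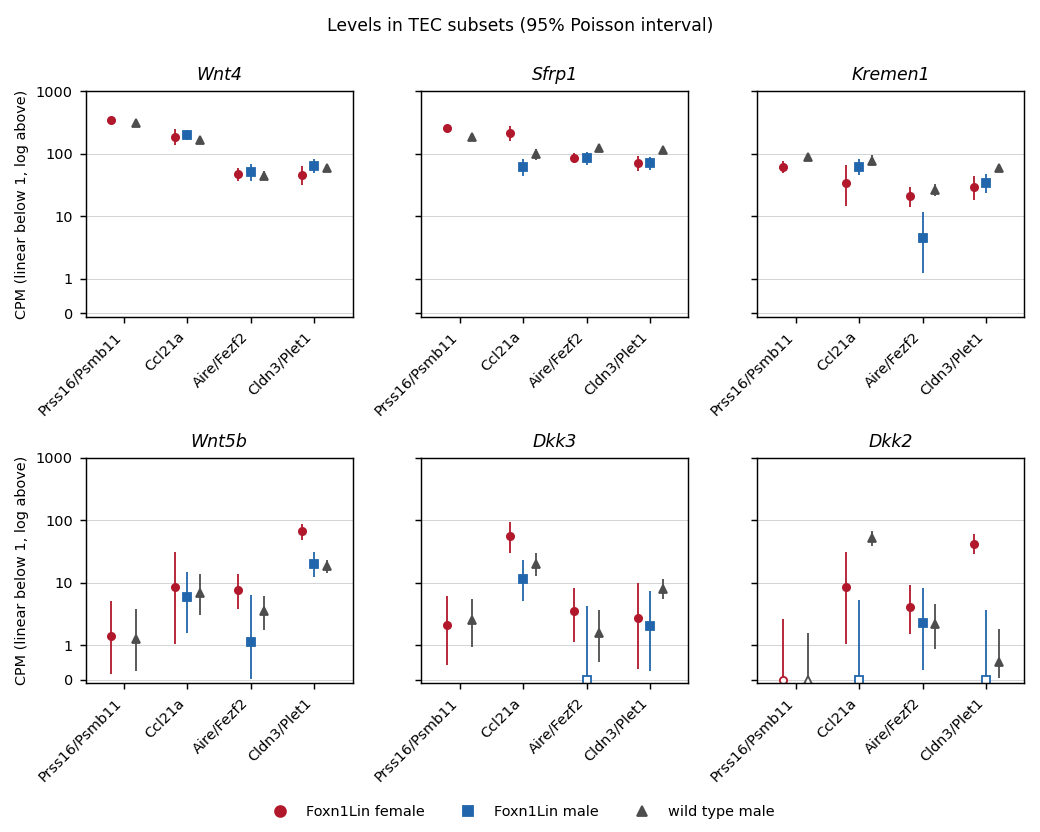
Levels of the genes tested in the TEC subsets by library, in CPM with exact 95% Poisson intervals. *Wnt4* was highest in *Prss16*/*Psmb11* TECs, at 349 and 308 CPM, and lay between 44.3 and 63.2 CPM in *Aire*/*Fezf2* and *Cldn3*/*Plet1* TECs.

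Among ECs, the *Dkk2* level was highest in the *Gja4*/*Gja5* subset, which carries arterial markers. This subset had 14, 15 and 27 barcodes, and only wild type male reached the 20 barcodes needed for the fit. *Dkk2* had 5, 56 and 59 UMIs there, or 68.8, 448 and 251 CPM. In each library this was above the level of FBs as a class (31.4, 134 and 179 CPM), although Foxn1Lin female rests on 5 UMIs. A single barcode gave 32 of the 56 UMIs in Foxn1Lin male and 25 of the 59 in wild type male. *Dkk2* was found in 21.4%, 66.7% and 44.4% of its barcodes. The *Gpihbp1*/*Rgcc* subset of capillary markers, with 1372, 442 and 402 barcodes, had 10, 2 and 1 UMIs. The *Selp*/*Ackr1* subset of venous markers had 12, 1 and 2 UMIs, or 24.3, 0.394 and 0.85 CPM. The *Gja4*/*Gja5* level was above both in each library, although it held 5 of 42, 56 of 67 and 59 of 120 *Dkk2* UMIs of all ECs. The log2 difference was 9.05 ± 0.73 for *Gja4*/*Gja5* ECs (edgeR adjusted p = 4.4e-06), which rests on the single sum of wild type male and on few counts in the other subsets, so that its error assumes that this sum varies like those of the other subsets. *Rspo1* had 0 UMIs in *Selp*/*Ackr1* ECs in all 3 libraries. Of the 6 genes tested, 1 passed in *Gja4*/*Gja5* ECs (4.78% of 12901 genes), 2 in *Selp*/*Ackr1* ECs (17%) and 1 in *Gpihbp1*/*Rgcc* ECs (9.81%). In mural cells 2 of the 10 genes could be tested between the *Myh11*/*Cnn1* and *Kcnj8*/*Abcc9* subsets, 0 passed edgeR's test and 0 had an unadjusted p under 0.05, against 17% of 8095 genes that passed.

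Between the libraries, 6 of the 10 genes differed at least 2-fold in FBs of Foxn1Lin female over Foxn1Lin male, against 18.7% of the 14452 genes with 20 UMIs or more in both libraries together. *Wnt4*, *Wnt5a*, *Rspo1*, *Sfrp1* and *Sfrp2* were higher in Foxn1Lin female and *Dkk2* was lower. Summed markers of other cell types in these FBs were higher for parathyroid (153 against 8.0 CPM), hematopoietic (78.8 against 18.4 CPM), TEC (167 against 90.1 CPM), Schwann cell (23.8 against 5.22 CPM) and EC lists (120 against 92.1 CPM), and lower for mural (110 against 136 CPM) and lymphatic EC lists (11.1 against 18.5 CPM). The mesothelial list, at 285 against 52.9 CPM, was almost all *Wt1* (277 and 52.0 CPM). Their part in the ratios was not tested. *Wnt4* was higher in Foxn1Lin female in ECs (12.8 against 2.10 CPM) and mural cells (21.3 against 4.01 CPM) as well, and 54 of its 200 UMIs in FBs came from 1 barcode. The log2 ratio was 1.21 for *Wnt5a* (0.99 to 1.44), 3.06 for *Rspo1* (2.46 to 3.72), 2.38 for *Sfrp2* (2.11 to 2.66) and -2.09 for *Dkk2* (-2.25 to -1.93). For *Wnt5a*, *Rspo1*, *Sfrp1*, *Sfrp2* and *Dkk2* these are the directions seen between *Smoc2*/*Dpep1* and *Ptn* FBs, whose numbers differed between these libraries. The part of these numbers in the ratios was not tested. Within *Ptn* FBs the log2 ratio was 0.13 for *Dkk2* (-0.10 to 0.36), -0.14 for *Wnt5a* (-1.0 to 0.65), 1.22 for *Sfrp1* (0.64 to 1.80) and 3.20 for *Wnt4* (2.02 to 4.55). In that subset 2 of the 8 genes with enough UMIs were past 2-fold, against 11% of all 11187 such genes. Within *Smoc2*/*Dpep1* FBs 6 of 10 were past 2-fold, against 18.1% of all 11232 genes, with -2.05 for *Dkk2* (-2.76 to -1.32) and 2.03 for *Rspo1* (0.76 to 3.68), and the ratio was 0.84 for *Sfrp1*, 0.94 for *Sfrp2* and 0.29 for *Wnt5a* (-0.18 to 0.79). FBs of Foxn1Lin male over wild type male differed at least 2-fold for 2 of 10 genes, against 10.9% of 14038 genes, with log2 ratios of -1.45 for *Rspo1* and -1.33 for *Sfrp1* (-1.55 to -1.11). Each ratio compares 1 library with 1 library.

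In TECs, 5 of 10 genes differed at least 2-fold between Foxn1Lin female and Foxn1Lin male, against 17.7% of 16001 genes, and 3 of 9 between Foxn1Lin male and wild type male, against 15.2% of 17203 genes. *Sfrp1* was lowest in Foxn1Lin male, with log2 ratios of 1.40 for Foxn1Lin female over it (1.23 to 1.57) and -1.03 for it over wild type male (-1.19 to -0.88), which with TMM scaling was -0.98 and so under 2-fold. *Wnt4* differed little between Foxn1Lin male and wild type male (log2 ratio 0.09, -0.03 to 0.20). The remaining genes past 2-fold in TECs were *Rspo1*, *Rspo3*, *Dkk2* and *Sfrp2*, none of which reached 8 CPM in that class. Single barcodes gave 30 of 49 *Dkk2* and 17 of 36 *Sfrp2* UMIs in Foxn1Lin female, and 16 of 21 *Rspo3* UMIs in Foxn1Lin male. For *Rspo1* the top barcode gave 5 of 48 in Foxn1Lin female. Outside the called barcodes *Rspo1* and *Sfrp2* stood at 18.8 and 22.8 CPM in Foxn1Lin female and at 2.23 and 4.25 CPM in Foxn1Lin male. The part of either in the ratios was not tested.

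Of 66 other genes of the WNT pathway, 53 were tested across the classes. In FBs 22 were higher and 5 lower, in mesothelial cells 18 were higher and 5 lower, in TECs 19 were higher and 19 lower, in mural cells 9 were higher and 3 lower, and in ECs 10 were higher and 24 lower. These counts stand beside the 32.1% of all genes that passed in FBs, 24.5% in mesothelial cells, 55.3% in TECs, 29.1% in mural cells and 43.4% in ECs, and the 12 of 53 in mural cells were below that share. The 4 that passed with the largest differences in each class are named here.

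In FBs they were the secreted inhibitors *Wif1*, at 0.21, 1.85 and 1.45 CPM (log2 difference 5.53 ± 0.84, edgeR adjusted p = 0.0039), and *Frzb*, at 2.45, 8.23 and 4.27 CPM (5.43 ± 0.75, adjusted p = 0.00038), and *Nkd2*, an intracellular inhibitor of WNT signaling, at 28.0, 27.7 and 82.5 CPM (4.13 ± 0.38, adjusted p = 1.6e-05). The ligand *Wnt7b* was lower there, at 0.0699 CPM in Foxn1Lin female and 0 in the other libraries. Of the secreted inhibitors on the list, 3 of the 8 tested passed as higher and 0 as lower in FBs, and 4 of 8 as higher and 2 as lower in TECs.

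In mesothelial cells, where *Rspo1* was also high, the ligand *Wnt2b* stood at 28.1 and 13.2 CPM (5.54 ± 0.42, adjusted p = 7.2e-06). The ligand *Wnt7b*, at 8.92 and 0 CPM, and the WNT target *Sp5*, at 1.57 and 2.2 CPM, passed as higher, and *Nkd2*, at 0.787 and 0 CPM, as lower.

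In TECs the WNT inhibitors *Sostdc1*, at 17.7, 14 and 2.09 CPM (6.03 ± 1.0, adjusted p = 0.00057), and *Dkk1*, at 2.0, 6.53 and 3.19 CPM (5.00 ± 0.79, adjusted p = 0.00041), were higher. So were the ligands *Wnt8b*, at 5.99, 3.11 and 1.87 CPM (5.30 ± 0.74, adjusted p = 0.00017), and *Wnt10a*, at 13.1, 13.1 and 9.61 CPM (4.92 ± 0.78, adjusted p = 0.0004). Within TECs, *Wnt8b*, *Wnt10b*, *Sostdc1* and *Wnt10a* were the 4 with the largest differences in the *Aire*/*Fezf2* subset, where *Wnt4* was low, and all 4 were higher there (log2 differences 5.98 ± 0.82, 5.68 ± 0.64, 4.34 ± 0.80 and 3.33 ± 0.32, edgeR adjusted p at most 0.0021). Of the 38 pathway genes tested in that subset, 10 were higher and 9 lower, against 43.9% of all genes that passed.

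In mural cells *Nkd1*, a relative of *Nkd2*, stood at 49.3, 62.3 and 60.2 CPM (3.45 ± 0.36, adjusted p = 3.3e-05) and the WNT inhibitor *Apcdd1* at 23.4, 26.2 and 63.1 CPM (2.73 ± 0.22, adjusted p = 5e-06). The R-spondin receptor *Lgr6*, at 2.08, 2.55 and 3.32 CPM, and the Frizzled receptor *Fzd7*, at 28.0, 31.0 and 62.3 CPM, were also higher. In ECs the 4 were lower, with *Fzd2* and *Nkd1* at 0 CPM in wild type male, *Lgr5* at 0.214 to 0.67 CPM and the receptor *Ror1* at 38.9, 10.6 and 12.7 CPM.

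Between *Smoc2*/*Dpep1* and *Ptn* FBs, the receptors *Fzd4* (2.13 ± 0.21, adjusted p = 0.00028) and *Lgr5* (3.91 ± 0.65, adjusted p = 0.0061) were higher in the former, although *Lgr5* stood there at 4.12, 0 and 23.7 CPM, in the direction of *Sfrp1*, *Sfrp2* and *Wnt5a*. *Wnt10a*, at 0.229, 0 and 0.609 CPM in the former and 7.5, 14.1 and 14.3 CPM in the latter, and *Nkd2* (-1.58 ± 0.22) were lower, in the direction of *Dkk2*. Of the 40 pathway genes tested between these subsets, 3 were higher and 5 lower in the former, against 13.1% of all genes that passed.

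Over the 14 sums of library and class, the 3 genes most like each of the 10 in log2 level were named as a description. These sums share libraries and classes, so that any gene restricted to a class scores high. *Wnt4* was most like *Stxbp2* (Pearson's r = 0.988) and then *Fxyd3* and *Fam83h*, *Wnt5a* most like *Sntg1* (0.977) and then *Armh4* and *Fbln1*, *Wnt5b* most like *Acbd4* (0.918) and then *Mmgt2* and *Ppfibp2*, *Rspo1* most like *Fcor* (0.972) and then *Gm38407* and *Nrn1l* and *Rspo3* most like *Gdf10* (0.916) and then *Mrap* and *5430401H09Rik*. *Dkk2* was most like *Masp1* (0.974) and then *Gm10484* and *Cpne7*, *Dkk3* most like *Tmem9* (0.954) and then *Ccdc80* and *Glt8d2*, *Sfrp1* most like *BC034090* (0.945) and then *Atxn10* and *Clip4*, *Sfrp2* most like *Lrrn4cl* (0.954) and then *Clec3b* and *Mmp19* and *Kremen1* most like *BC052040* (0.920) and then *Rnf145* and *Osbp*.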

How the data were processed

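The deposited matrices hold UMI counts per gene and barcode that the authors made with Cell Ranger 7.01 on GRCm38.p5 (mm10), with reads in introns counted, so a count covers the whole gene. The header of the deposited matrices of all barcodes names another version of that tool. Library summaries deposited by the authors give saturation as a percent (52.1, 81.0 and 72.8, in the order of the report). Gene positions are those of GENCODE vM21.

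Called barcodes with at most 1000 genes and at least 20% mitochondrial UMIs were removed (138, 149 and 222). No doublet caller was run, and barcodes that met 2 class definitions were dropped in its place. Libraries shared 8, 14 and 3 called barcodes. UMI counts were summed per library and class (at least 20 barcodes) and tested with edgeR 4.0.16 in R 4.3.3 (filterByExpr, TMM, quasi-likelihood test, library as block, Benjamini-Hochberg over all genes tested). The sums of 1 library share its animals and the block pairs them. The groups have 1 library each, and the block removes the overall level of each library. The p-values thus measure how far class differences vary between libraries that differ in genotype and sex. A subset with 1 sum adds no spread of its own. DESeq2 1.42.0 was an alternative. On simulated counts for the FB comparison of 16653 genes, 69.3% of genes changed 2-fold and 100% of those changed 4-fold were recovered. The changed genes were drawn from those with an average of at least 20 UMIs per sum, and all genes had the same dispersion. These rates thus do not cover genes with fewer UMIs.

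The 10 genes, the pathway list and the subset definitions were chosen with earlier results of these data known. All 10 genes are named, together with the 3 genes most like each and, per class, the 4 pathway genes with the largest difference among those that passed. Of the subset comparisons, these 4 are named for *Aire*/*Fezf2* TECs and for *Smoc2*/*Dpep1* against *Ptn* FBs. Levels are CPM of all UMIs of the sum, and shares of barcodes are as counted unless said to be thinned to 2000 UMIs per barcode. Alternatives were DESeq2's test, its size factors, no filter, no block, each library left out, exclusive definitions, all called barcodes and the highest UMI totals removed. Chosen after the data were examined were the *Pi16* definition applied first and each gene without its top barcode.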

Additional observations from a re-analysis of the deposited data

Results flagged for a closer look

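*Kremen1*, the Dickkopf receptor, was more abundant outside the called barcodes, which no comparison used, than in any class of the same library. It stood at 150 CPM there against 45.9 CPM in the highest class of Foxn1Lin female, and at 86 CPM against 38.9 CPM in Foxn1Lin male. In wild type male it was 51.4 CPM, below the 59.8 CPM of TECs.

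In 4 cases, in comparisons with all 3 libraries, a gene differed by at least 1 in opposite directions in 2 libraries and stood at 10 CPM or more in the subset where it was higher. Smaller opposite differences are left out. Each value is 1 library's difference between a subset and the others on the log2(CPM + 1) scale. None of these differences was tested, since each group has 1 library. *Dkk2* differed by 3.54 in *Cldn3*/*Plet1* TECs of Foxn1Lin female and by -1.87 in wild type male. In the former 30 of 31 UMIs of that subset came from 1 barcode, and in the latter 59 UMIs of *Ccl21a* TECs came from 1 barcode. *Dkk2* in *Selp*/*Ackr1* ECs differed by 3.39 in Foxn1Lin female and by -3.29 in wild type male, from 12 and 2 UMIs. The others differ between these libraries, since *Gja4*/*Gja5* ECs reached 20 barcodes in wild type male alone. Against *Gpihbp1*/*Rgcc* ECs, present in both, the differences were 3.39 and 0.51, in the same direction. *Wnt5b* in *Myh11*/*Cnn1* mural cells differed by 3.32 in wild type male and by -2.15 in Foxn1Lin female. In wild type male 17 UMIs stood against 0 UMIs in *Kcnj8*/*Abcc9* mural cells, so that the size is set by the 1 CPM added, and in Foxn1Lin female 8 stood against 10. *Kremen1* in the same mural subset differed by 1.02 in Foxn1Lin male and by -1.28 in wild type male, from 2 and 8 UMIs in the *Kcnj8*/*Abcc9* subset.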

How the results depend on the processing

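Of the single differences, 1335 kept direction and side of the threshold over the alternatives, 67 no longer passed, 25 newly passed and 1 reversed, *Sfrp1* in *Pi16* FBs (0.57 with the *Pi16* definition first). The number of the 10 genes that passed changed by over 1.5 times in these cases. Without the library block (no replicate block) it was 3 in mural cells, 0 in *Smoc2*/*Dpep1* FBs and 1 in *Selp*/*Ackr1* ECs. With DESeq2 it was 2 in *Smoc2*/*Dpep1* FBs and 1 in *Selp*/*Ackr1* ECs. Without a filter it was 6 in *Prss16*/*Psmb11*, 4 in *Ccl21a* and 5 in *Aire*/*Fezf2* TECs, where all 10 genes could then be tested. With exclusive definitions it was 1 in *Ccl21a* TECs. With the highest UMI totals removed it was 1 in *Cldn3*/*Plet1* TECs and 1 in *Selp*/*Ackr1* ECs, and without each gene's top barcode 1 in *Selp*/*Ackr1* ECs. The cause was not tested. Leaving out 1 library in turn gave 3 to 4 in TECs, 5 to 6 in ECs, 6 to 7 in FBs, 2 to 4 in mural cells and 3 to 6 in mesothelial cells. It gave 2 to 3 in *Pi16*, 2 in *Smoc2*/*Dpep1* and 3 to 4 in *Ptn* FBs, and 4 to 6 between the last 2 subsets. It gave 1 to 4 in *Prss16*/*Psmb11*, 0 to 3 in *Ccl21a*, 1 to 2 in *Aire*/*Fezf2* and 2 in *Cldn3*/*Plet1* TECs, 1 in *Gja4*/*Gja5*, 1 to 2 in *Selp*/*Ackr1* and 1 in *Gpihbp1*/*Rgcc* ECs, and 0 between mural subsets. Without Foxn1Lin female there was no *Pi16* sum, and without wild type male no *Gja4*/*Gja5* sum. The class highest by thinned share was mesothelial, and not that by CPM, for *Wnt5b* and *Sfrp2*. TMM scaling left the 39 library ratios of TECs and FBs within their counting intervals, although *Sfrp1* in TECs of Foxn1Lin male over wild type male fell under 2-fold (-0.98). Thinning to 2000 UMIs took 120 of 140 shares of barcodes outside their counting intervals.

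Precision was limited by 1 library per group, by 36 mesothelial barcodes in wild type male and by subsets of as few as 24 barcodes. In FB subsets, 20.2% of genes changed 2-fold and 79.2% of those changed 4-fold were recovered in simulated counts of *Ptn* FBs. These rates too cover only changed genes drawn for their higher counts.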

Other observations

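FBs with 3 or more *Dkk2* UMIs were set beside FBs with 0. The genes were picked after their values were seen, as those with the largest difference in the same direction in all 3 libraries, so that no test was made. Ratios are on the log2 scale with 5 CPM added to each level. *Postn*, the matrix protein periostin, stood at 1293, 2069 and 2497 CPM in the FBs with *Dkk2* and at 170, 538 and 863 CPM in those without. *Htr1f*, a serotonin receptor, had log2 ratios of 2.65, 2.03 and 1.78. *Sema3a*, an axon guidance ligand, *Mmp3*, a matrix protease, and *Tnfrsf19*, a receptor known as a WNT target, were also higher in each library. *Wt1*, a transcription factor of mesothelium and mesenchyme, had log2 ratios of -2.74, -2.36 and -1.91. The immunoglobulin transcripts *Igkc* and *Jchain*, which FBs are not known to make, were also lower in FBs with *Dkk2*, by log2 ratios of -5.32, -5.00 and -2.69 for *Igkc*.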
